A study of Mus musculus with 16 samples.

Results

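The Tweety homologues Ttyh1, Ttyh2 and Ttyh3 were chosen by name, and all 3 were found among the 36536 mouse genes counted in each of 16 libraries. The libraries came from cochleas of newborn (P0) and P5 mice that carried the Lfng-EGFP BAC transgene on a B6;FVB background, in which regulatory DNA of Lfng drives GFP. Cochleas were cultured for 24 h with 10 µM DAPT or with 0.04% DMSO as vehicle, in medium with EGF and FGF2, and the dissociated cells were then sorted by GFP fluorescence. The 8 groups were P0 and P5, DMSO and DAPT, GFP+ and GFP-, with 2 libraries each. Nothing in the labels said whether the libraries of a pair came from separate animals or cultures, so p-values measured the spread between libraries, which may be technical.

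The transgene limits what each fraction holds. GFP marked Deiters' cells, outer pillar cells, border cells and inner phalangeal cells but not inner pillar cells, and in describing its sort the study states that the brightest cells were taken as GFP+ and that cells of low GFP were left out. The GFP- fraction held cells of the explant sorted as lacking GFP. At P0 the stria vascularis, Reissner's membrane and lateral wall were taken off the cultured tissue, but at P5 only in part, so the GFP- fractions of the 2 ages were not dissected alike. Of 15 supporting cell markers, 11 were called higher in GFP+ than in GFP- cells at P0 in DMSO and 10 at P5, beside 40.9% and 33.9% of all genes called in either direction, and their summed level was 9543 to 18392 CPM (counts scaled to library size) in the GFP+ libraries against 1331 to 6693 CPM in the GFP- libraries. In bulk samples fewer cells of a type and less RNA per cell cannot be told apart.

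Tweety homologues are membrane proteins with several membrane-spanning segments. They were first described as chloride channels and were later linked to anion currents that follow cell swelling, although whether they form a channel pore is debated. Ttyh1 is known from radial glia, astrocytes and neural stem cells of the brain, where it has been reported to raise Notch signalling by lowering Rer1, a retention factor of the gamma-secretase complex. Gamma-secretase cuts activated Notch receptors, DAPT blocks it, and in the newborn cochlea Notch signalling from hair cells keeps their neighbours as supporting cells.

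In the mm9 assembly (NCBI build 37), the build to which the reads were aligned, Ttyh1 (ENSMUSG00000030428) lies on the plus strand of chromosome 7 from 4071010 to 4088308, Ttyh2 (ENSMUSG00000034714) on the plus strand of chromosome 11 from 114536745 to 114582291, and Ttyh3 (ENSMUSG00000036565) on the minus strand of chromosome 5 from 141096540 to 141124985. Their longest annotated complete proteins had 466, 532 and 524 residues. Over aligned residues, Ttyh1 was 43.7% identical to Ttyh2 and 39.3% identical to Ttyh3, and Ttyh2 was 40.3% identical to Ttyh3. The longest run of bases shared by any pair of their transcripts was 25, between Ttyh1 and Ttyh2. The longest run shared between Ttyh1 and Ttyh3 was 16 bases, and between Ttyh2 and Ttyh3 it was 14 bases.

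The region before the start of Ttyh1 is shown because its transcript was the member that followed DAPT, and that of Hes5, a direct Notch target, is shown for comparison. Each line gives the 250 bases before the RefSeq start in GRCm38.p6, 5′ to 3′ on the gene's own strand. Capitals mark TGGGAA, with the G before it where the letters read GTGGGAA, on either strand. This is the core of the site read by RBPJ, the DNA-binding partner of Notch. The Ttyh1 stretch is chr7:4119280-4119529 (+) and the Hes5 stretch is chr4:154960673-154960922 (+).
Ttyh1: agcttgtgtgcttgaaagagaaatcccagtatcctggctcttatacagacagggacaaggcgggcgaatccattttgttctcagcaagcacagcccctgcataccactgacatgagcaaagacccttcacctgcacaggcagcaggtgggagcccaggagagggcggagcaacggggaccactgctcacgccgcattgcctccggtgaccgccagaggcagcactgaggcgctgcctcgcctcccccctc
Hes5: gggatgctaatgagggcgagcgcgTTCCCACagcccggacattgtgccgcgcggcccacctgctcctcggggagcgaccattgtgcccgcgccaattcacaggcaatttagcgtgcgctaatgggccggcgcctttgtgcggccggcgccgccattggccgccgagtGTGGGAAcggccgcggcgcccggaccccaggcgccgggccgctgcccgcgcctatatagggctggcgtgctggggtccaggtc

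Hes5 held GTGGGAA at 226 and 83 bases before its start, on opposite strands. None of the 3 Tweety homologues held TGGGAA (with or without the letters before it) or an E box read as CACGTG (the same on both strands) in the window from 250 bases before to 50 bases after the start. Over all 32851 promoters of that table, 25.6% held TGGGAA, which is contained in GTGGGAA, 6.38% held GTGGGAA and 7.15% held CACGTG on either strand. The base composition of the Ttyh1 window was 63.3% G or C with 14 CpG, and that of Ttyh2 was 62.3% with 15 CpG. The Ttyh3 window was richer, at 70.7% with 29 CpG, against medians of 52.7% and 7 CpG over all promoters. No match says only that these letters were not in this window.

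The study also made a Ttyh1 in situ hybridisation probe, and its primers place the probe on the gene. The forward primer was taacctgaccttgactggg and the gene-specific part of the reverse primer was cttgactgttcctgtggct, both 5′ to 3′. In mm9 they bound a plus-strand stretch of 578 bases, chr7:4085499-4086076, in the last exon of 5 annotated Ttyh1 transcripts. The stretch lay in the 3′ UTR of 3 of these transcripts and began in the coding part of the other 2. An annotated antisense gene, D030047H15Rik (chr7:4077942-4088528, minus strand), covers the same stretch.

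Depth and library make-up differed between the fractions and are given first because every comparison of GFP+ with GFP- cells crosses them. The counts assigned to genes were 13755356 to 23637236 per GFP+ library and 34869184 to 45465324 per GFP- library. Reads that fell in no gene made up 50.05% to 62.0% in GFP+ and 6.64% to 13.7% in GFP- libraries. Mitochondrially encoded genes took 23.0% to 34.2% of gene counts in GFP+ and 3.01% to 5.37% in GFP- libraries. The numbers that the submitters gave the libraries fell in separate runs for the GFP- libraries, for the P0 DMSO GFP+ pair, and for the remaining GFP+ libraries, so where a comparison crosses these runs, its groups cannot be told apart from them. This touches DAPT at P0 in GFP+ cells, age in GFP+ cells, every comparison of the fractions, and the differences in DAPT response between the ages and between the fractions. The P0 DMSO GFP+ pair also stood apart from the other 6 GFP+ libraries, with 30639 and 31345 genes detected against 25651 to 27156 and with 8.57% and 7.63% of alignments not unique against 3.95% to 4.45%. For all 3 members, the values for DAPT at P0 and for age in GFP+ cells rest on this pair. So do the age difference in DAPT response and, at P0, the fraction differences in DMSO and in DAPT response. Within the GFP- libraries, P0 DMSO GFP- replicate 2 stood apart from its partner, with a summed 39.4 CPM of 10 neuron markers against 400 CPM in replicate 1, and 4219 against 1331 CPM of the supporting cell markers. The part of these differences in the results was not tested. For Ttyh1, the tested differences that rest on the P0 DMSO GFP- pair are given with and without each of its libraries.

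Ttyh1 was highest in newborn supporting cells. Levels were CPM scaled by TMM over all libraries. In P0 DMSO GFP+ cells Ttyh1 stood at 688 and 735 CPM, and in P5 DMSO GFP+ cells at 310 and 373 CPM. With DAPT it stood at 77.1 and 95.3 CPM in P0 GFP+ cells and at 101 and 121 CPM in P5 GFP+ cells. All 4 DAPT libraries lay below all 4 DMSO libraries of the GFP+ cells. In GFP- cells Ttyh1 stood at 81.1 and 23.5 CPM in P0 DMSO, 86.9 and 81.5 CPM in P0 DAPT, 36.2 and 33.7 CPM in P5 DMSO, and 31.3 and 26.6 CPM in P5 DAPT. The order of the group means ran from P0 DMSO GFP+ through P5 DMSO GFP+, P5 DAPT GFP+, P0 DAPT GFP+, P0 DAPT GFP-, P0 DMSO GFP- and P5 DMSO GFP- to P5 DAPT GFP-. The libraries of neighbouring groups overlapped between P0 DAPT GFP+ and P0 DAPT GFP- and between P0 DMSO GFP- and P5 DMSO GFP-.

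**Figure D1:**
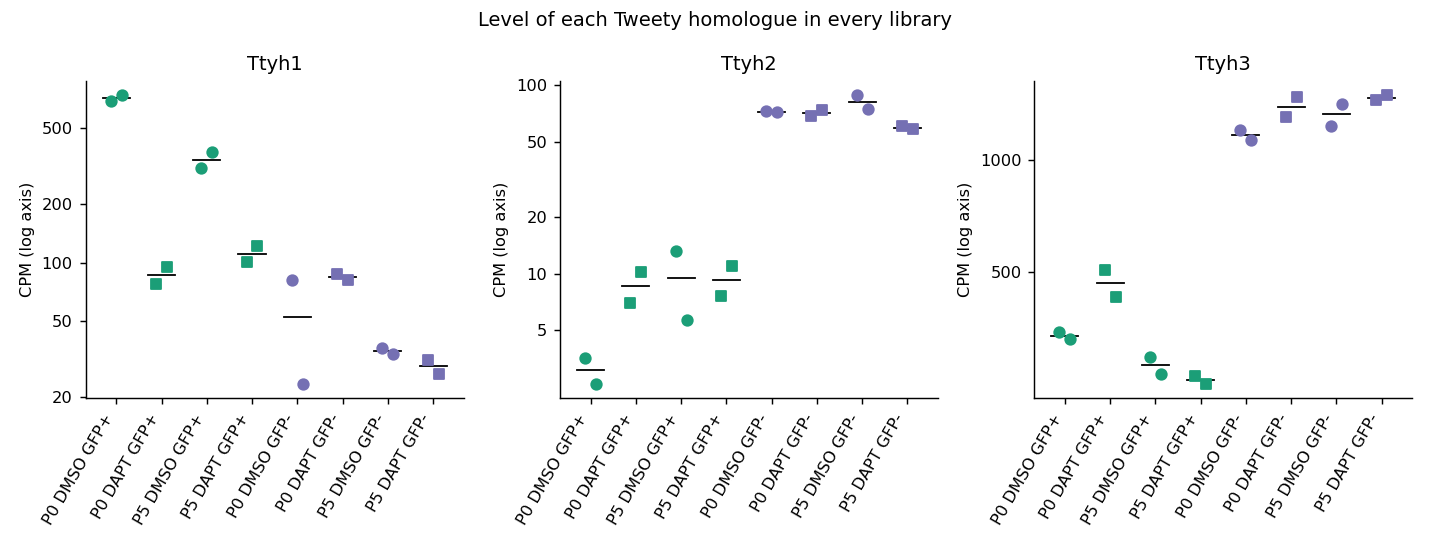
CPM of Ttyh1, Ttyh2 and Ttyh3 on log axes with their own ranges, 1 point per library (2 per group, replicate 1 left), green for GFP+ and purple for GFP-, circles for DMSO and squares for DAPT, with a bar at the group mean. Ttyh1 is highest in the P0 DMSO GFP+ pair (688 and 735 CPM), while every GFP+ library lies below every GFP- library for Ttyh2 and for Ttyh3.

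Whether Notch blockade lowers Ttyh1 was the question of the DAPT comparison. In P0 GFP+ cells Ttyh1 fell 8.46-fold with DAPT (log2 fold change -3.08, SE 0.15, 95% interval -3.41 to -2.75, adjusted p = 2.04e-06, edgeR quasi-likelihood test). A gene was called at an adjusted p under 0.01 and a change over 2-fold, and 8.37% of the 20711 genes tested were called here. The call held without each of the 4 libraries in turn, with log2 fold changes of -3.21 to -2.90. Ttyh1 had been picked for this response in earlier work on these libraries, so its fall is a description of a known case and not independent evidence.

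At P5 the fall was smaller and its call depended on the test. Ttyh1 was 3.08-fold lower with DAPT in P5 GFP+ cells (log2 fold change -1.62, SE 0.17, 95% interval -2.03 to -1.21, adjusted p = 0.231 by edgeR). By edgeR 0% of 18754 genes were called. Of these, 953 had an unadjusted p under 0.05, near the share of 0.05 that would fall there with no change. Later counts at that limit were smaller shares of the genes tested. The DESeq2 Wald test called 58 genes. Ttyh1 was among the calls by DESeq2 (log2 fold change -1.62, adjusted p = 1.07e-10) and by edgeR with no filter on low counts (-1.62, adjusted p = 2.16e-14). The difference between the responses at the 2 ages was itself called, at 1.46 log2 units (SE 0.23, adjusted p = 0.00842), in a comparison with 1.1% of 22199 genes called. That call was lost on leaving out any 1 of 6 of the 8 libraries, both P0 DMSO GFP+ and both P0 DAPT GFP+ libraries, P5 DMSO GFP+ replicate 1 and P5 DAPT GFP+ replicate 2, with values of 1.28 to 1.61 and adjusted p of 0.0139 to 0.0424. It was also lost with all 8 groups in the fit (1.43, adjusted p = 0.157).

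In GFP- cells Ttyh1 did not pass the test for DAPT. At P0 the Ttyh1 difference was 0.66 log2 units with DAPT (SE 0.61, 95% interval -1.003 to 2.33, adjusted p = 1, edgeR). Without P0 DMSO GFP- replicate 2 it was 0.04, and without replicate 1 it was 1.79 with an adjusted p of 0.00277, so the choice of library set both size and call. At P5 the difference was -0.26 (SE 0.15, 95% interval -0.67 to 0.14, adjusted p = 1). By edgeR 0% of 17357 genes at P0 and 0% of 17286 at P5 were called, with 614 and 342 genes at an unadjusted p under 0.05 and 27 and 8 genes called by DESeq2. The DAPT response of Ttyh1 in GFP+ cells differed from that in GFP- cells at P0 by -3.73 log2 units (SE 0.66, adjusted p = 0.0263), which was not called, with 0.752% of genes called. Without P0 DMSO GFP- replicate 1 the difference was -4.89 and without replicate 2 it was -3.09, and both were called (adjusted p = 9.94e-06 and 7.41e-05). At P5 it was -1.35 (SE 0.26, adjusted p = 1), where 0% of genes were called by edgeR, 585 had an unadjusted p under 0.05 and DESeq2 called 2.

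Ttyh1 was called higher in GFP+ than in GFP- cells in vehicle at both ages and under DAPT at P5. In DMSO it was 14.7-fold higher in GFP+ than in GFP- cells at P0 (log2 3.87, SE 0.61, adjusted p = 0.00313, with 40.9% of genes called and a median of 0.18 over all genes) and 10.7-fold higher at P5 (log2 3.42, SE 0.21, adjusted p = 0.00056, 33.9% called). Under DAPT at P0 the levels of the 2 fractions overlapped (log2 0.16, SE 0.13, 95% interval -0.16 to 0.48, adjusted p = 0.311), while 49.6% of all genes were called. Under DAPT at P5 it was still 4.23-fold higher in GFP+ cells (log2 2.08, SE 0.20, adjusted p = 0.000903, 36.2% called), a call lost without P5 DAPT GFP- replicate 2 (log2 1.92, adjusted p = 0.0107). The P0 DMSO call was lost without P0 DMSO GFP+ replicate 1 (log2 3.88, adjusted p = 0.038) or replicate 2 (3.82, adjusted p = 0.0401). Leaving out P0 DMSO GFP- replicate 1 or 2 kept that call and gave the highest and lowest values, 4.97 and 3.20.

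With age Ttyh1 fell in supporting cells in vehicle. It was 2.14-fold lower at P5 than at P0 in DMSO GFP+ cells (log2 -1.10, SE 0.16, adjusted p = 0.00545, 3.32% of genes called). The call was lost without P0 DMSO GFP+ replicate 2 (-1.07, adjusted p = 0.0122) and without P5 DMSO GFP+ replicate 1, where the change fell below 2-fold (-0.93, adjusted p = 0.00142). It was also lost when all 8 groups shared 1 estimate of the spread (-1.06, adjusted p = 0.0966). In GFP- cells the difference was -0.63 (SE 0.56, 95% interval -2.03 to 0.78, adjusted p = 1), 0% of genes were called, 135 had an unadjusted p under 0.05, and DESeq2 called 1. Without P0 DMSO GFP- replicate 2 the GFP- difference was -1.25 with an adjusted p of 0.00726, and without replicate 1 it was 0.53.

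Ttyh2 had the reverse distribution, scarce in the GFP+ libraries and present in every GFP- library. GFP+ libraries held 3.57 and 2.596 CPM in P0 DMSO, 6.94 and 10.2 CPM in P0 DAPT, 13.2 and 5.68 CPM in P5 DMSO, and 7.56 and 10.96 CPM in P5 DAPT. GFP- libraries held 72.7 and 71.6 CPM in P0 DMSO, 68.4 and 73.5 CPM in P0 DAPT, 88.1 and 74.3 CPM in P5 DMSO, and 60.4 and 58.7 CPM in P5 DAPT. All 8 GFP- libraries were above all 8 GFP+ libraries. Along the order of group means, libraries of neighbours overlapped between P0 DMSO GFP- and P0 DAPT GFP-, between P5 DMSO GFP+ and P5 DAPT GFP+, and between P5 DAPT GFP+ and P0 DAPT GFP+.

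In each of the 4 comparisons of the fractions Ttyh2 was called lower in GFP+ cells, where 33.9% to 49.6% of all genes were called. It was 21.6-fold lower at P0 in DMSO (log2 -4.43, SE 0.26, adjusted p = 0.000443), 7.84-fold lower at P5 in DMSO (log2 -2.97, SE 0.41, adjusted p = 0.00258), 7.56-fold lower at P0 in DAPT (log2 -2.92, SE 0.20, adjusted p = 4.17e-05) and 5.799-fold lower at P5 in DAPT (log2 -2.54, SE 0.24, adjusted p = 0.000925). The P0 DMSO call was lost without P0 DMSO GFP+ replicate 1 (-4.73, adjusted p = 0.0256) or replicate 2 (-4.23, adjusted p = 0.0255), and the P5 DMSO call without P5 DMSO GFP- replicate 1 (-2.88, adjusted p = 0.0108).

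Ttyh2 did not pass the test for DAPT in GFP+ cells. At P0 both DAPT libraries lay above both DMSO libraries, and the difference was 1.44 log2 units (SE 0.39, 95% interval 0.57 to 2.30, adjusted p = 0.0239). It was called with no filter on low counts (1.49, adjusted p = 0.00844) and by DESeq2 (1.47, adjusted p = 0.00743). At P5 the difference was -0.03 (95% interval -1.18 to 1.12, adjusted p = 1), with DMSO and DAPT libraries overlapping. The difference between the ages was -1.46 (SE 0.64, adjusted p = 0.221), and the difference between the fractions at P0 was 1.5 (SE 0.32, adjusted p = 0.0482), called by DESeq2 only (1.48, adjusted p = 0.00209). Between P0 and P5 in DMSO GFP+ cells Ttyh2 differed by 1.56 (SE 0.50, adjusted p = 0.079). Without P5 DMSO GFP+ replicate 2 that value was 2.06, and with no filter it was 1.64 (adjusted p = 0.00928). The 2.06 rests on P5 DMSO GFP+ replicate 1, where 8 mesenchyme markers summed to 1715 CPM, against 416 CPM in replicate 2. In P0 DMSO GFP+ these markers summed to 246 and 215 CPM, and their part in the Ttyh2 values was not tested.

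Ttyh3 was also higher in GFP- than in GFP+ cells, but was well expressed in both. In GFP+ cells it stood at 343 and 328 CPM in P0 DMSO, 506 and 426 CPM in P0 DAPT, 294 and 264 CPM in P5 DMSO, and 262 and 248 CPM in P5 DAPT. In GFP- cells it stood at 1203 and 1130 CPM in P0 DMSO, 1308 and 1479 CPM in P0 DAPT, 1236 and 1421 CPM in P5 DMSO, and 1451 and 1494 CPM in P5 DAPT. The lowest GFP- library lay above the highest GFP+ library. In the order of the group means, neighbours overlapped between P5 DAPT GFP- and P0 DAPT GFP- and between P0 DAPT GFP- and P5 DMSO GFP-.

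Ttyh3 was called lower in GFP+ cells in all 4 fraction comparisons, by 3.22-fold at P0 in DMSO (log2 -1.69, SE 0.25, adjusted p = 0.00303), 4.33-fold at P5 in DMSO (log2 -2.11, SE 0.23, adjusted p = 0.00142), 2.75-fold at P0 in DAPT (log2 -1.46, SE 0.14, adjusted p = 0.000157) and 5.23-fold at P5 in DAPT (log2 -2.39, SE 0.22, adjusted p = 0.000843). In these comparisons 33.9% to 49.6% of all genes were called, and 54.7%, 70.9%, 54.1% and 74.1% of genes, in the same order, changed by less than Ttyh3. The P0 DMSO call was lost without P0 DMSO GFP+ replicate 1 (-1.76, adjusted p = 0.0515) or replicate 2 (-1.66, adjusted p = 0.0616). With DAPT it differed by 0.44 log2 units in P0 GFP+ cells (SE 0.13, 95% interval 0.15 to 0.73, adjusted p = 0.0342) and by -0.13 in P5 GFP+ cells (95% interval -0.47 to 0.21, adjusted p = 1). These intervals stayed within 2-fold. With age in DMSO GFP+ cells the difference was -0.31 (SE 0.15, adjusted p = 0.202).

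**Figure D2:**
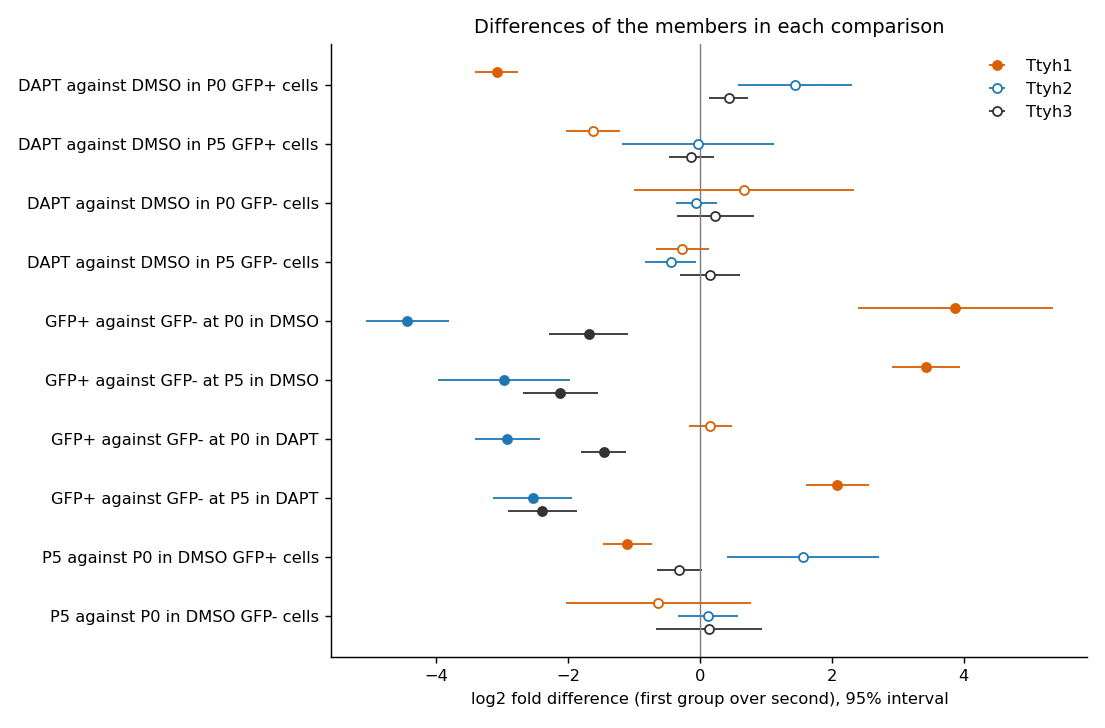
Log2 fold differences of Ttyh1 (orange), Ttyh2 (blue) and Ttyh3 (black), first named group over second, with 95% intervals from edgeR and filled points where the gene was called. Ttyh1 is called lower with DAPT in P0 GFP+ cells at -3.08, and Ttyh2 and Ttyh3 are called lower in GFP+ cells in each of the 4 fraction comparisons.

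Neither paralogue passed the test for DAPT in GFP- cells. Ttyh2 differed by -0.05 (95% interval -0.36 to 0.26) at P0 and by -0.44 (95% interval -0.83 to -0.06) at P5, and Ttyh3 by 0.23 (95% interval -0.35 to 0.82) and 0.16 (95% interval -0.30 to 0.62), all with adjusted p = 1. Between P5 and P0 in DMSO GFP- cells Ttyh2 differed by 0.12 and Ttyh3 by 0.14, again with adjusted p = 1.

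Dividing CPM by the exonic length allows the members to be set beside each other. Per kb of exon, Ttyh1 made up 59.1% and 61.8% of the family's summed level in the P0 DMSO GFP+ libraries, and Ttyh3 made up 40.3% and 37.8%. With DAPT the Ttyh1 share was 9.87% and 13.7%, and that of Ttyh3 was 88.6% and 83.8%. At P5 the Ttyh1 share was 42.2% and 50.2% in DMSO and 21.3% and 25.3% in DAPT. The order of the members depended on the length used. The exonic length of Ttyh1 over all its transcripts was 6362 bases, and the transcript of its longest complete protein had 1523. For Ttyh2 these lengths were 3739 and 3486 bases, and for Ttyh3 both were 4650, so mainly the Ttyh1 length changed. The 1523-base transcript is not among the 5 that hold the probe stretch in their last exon, while the counts are of the whole gene. On the transcript lengths, an alternative added after seeing the data, the Ttyh1 share of GFP+ libraries at P0 was 85.8% and 87.1% with DMSO against 31.4% and 39.9% with DAPT. At P5 it was 75.3% and 80.8% with DMSO against 53.1% and 58.5% with DAPT. Ttyh1 thus led in P0 DMSO GFP+ and Ttyh3 in P0 DAPT GFP+ cells on both lengths, and the order in P5 DAPT GFP+ cells turned. In P5 DMSO GFP+ libraries Ttyh3 made up 54.7% and 48.5% per kb of exon, so the leading member differed between the 2 libraries. On the transcript lengths Ttyh1 led in both.

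In GFP- libraries Ttyh3 made up 88.9% to 94.2%, Ttyh2 4.60% to 7.98% and Ttyh1 1.22% to 4.38% per kb of exon. On the transcript lengths Ttyh3 still led, but the order of Ttyh1 and Ttyh2 turned in some of these libraries. In P0 DAPT GFP- libraries Ttyh1 then made up 15.9% and 13.6%, and Ttyh2 5.48% and 5.37%. The summed level of the family per kb was 183 and 187 CPM in P0 DMSO GFP+, 123 and 109 CPM in P0 DAPT GFP+, 115 and 117 CPM in P5 DMSO GFP+, and 74.1 and 75.4 CPM in P5 DAPT GFP+. It was 266 to 351 CPM in the GFP- libraries, above every GFP+ library. On the transcript lengths, with whole-gene Ttyh1 counts over 1523 bases, the P0 DMSO GFP+ sums were 527 and 554 CPM. They lay above the 279 to 393 CPM of the GFP- libraries, so that order turned too.

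**Figure D3:**
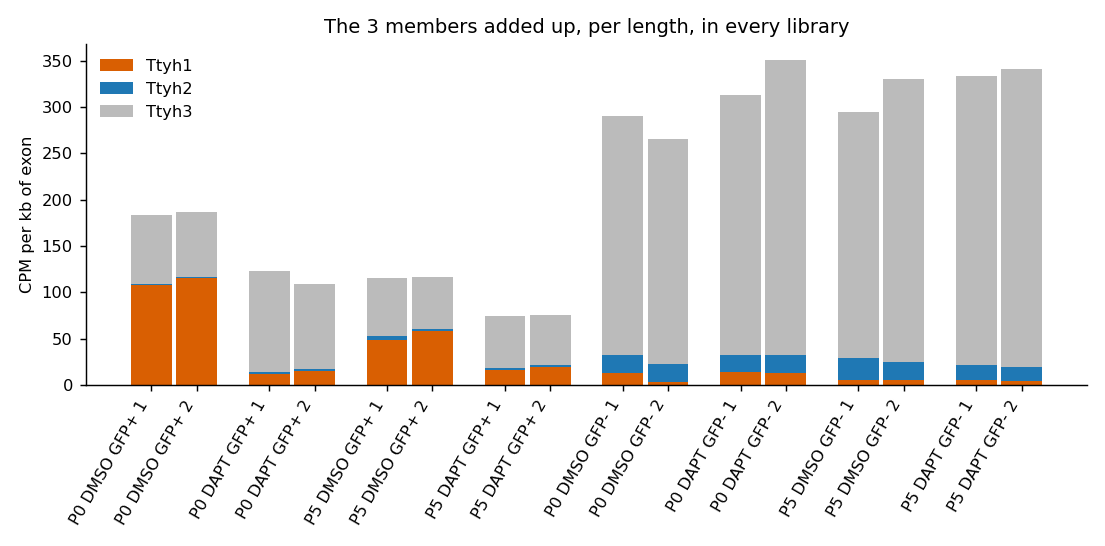
CPM per kb of exon of Ttyh1 (orange), Ttyh2 (blue) and Ttyh3 (grey) stacked for each of the 16 libraries, with exonic length taken over all transcripts, labelled by group and replicate. Ttyh1 takes 59.1% and 61.8% of the stack in the P0 DMSO GFP+ libraries and 9.87% and 13.7% in the P0 DAPT GFP+ libraries, and Ttyh3 takes 88.9% or more in GFP- libraries.

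Antisense annotation limits the Ttyh1 counts. The library kit does not mark strand, and the counting options are not given in the sources used here, so reads of Ttyh1 and of antisense genes that overlap it cannot be told apart. At the 5′ end lies 9430041J12Rik (ENSMUSG00000086155, chr7:4025727-4072330, minus strand), which stood at 12.4 and 26.6 CPM in P0 DMSO GFP+ and at 4.59 and 5.58 CPM in P0 DAPT GFP+ cells (log2 -1.97, adjusted p = 0.00561). D030047H15Rik stood at 5.40 and 12.1 CPM in P0 DMSO GFP+ and at 2.51 and 2.64 CPM in P0 DAPT GFP+ cells (log2 -1.79, adjusted p = 0.0185, not called). Both were far below Ttyh1 in CPM in the same libraries. A pseudogene with the same symbol 9430041J12Rik (ENSMUSG00000047116) was at 0 in all 16 libraries. No annotated gene overlapped Ttyh2 or Ttyh3.

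Genes of the Notch pathway gave the setting in which Ttyh1 moved. Of 6 Notch target genes, all 6 were called lower with DAPT in P0 GFP+ cells, with a median log2 fold change of -3.76 against -0.04 over all genes. Hes5, a repressor of hair cell fate, was at 112 and 84.8 CPM in DMSO and 0.32 and 0.36 CPM in DAPT (log2 -8.18). Heyl (-4.46), Nrarp, a feedback inhibitor of Notch (-4.37), and Hey1 (-3.14) were also called lower, so the change of Ttyh1 (-3.08) was close to that of Hey1. Of all genes tested there, 92.9% changed by less than Ttyh1, which had been picked for this response. At P5 none of the 6 was called by edgeR, with a median of -1.80 and values of -5.39 for Hes5, -1.91 for Heyl, -1.94 for Nrarp and -0.99 for Hey1, beside -1.62 for Ttyh1. By DESeq2, 3 of the 6 were called lower at P5, Hes5, Heyl and Nrarp, against 0.32% of all genes with an adjusted p.

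The other Notch lists are read against the 8.37% of all genes called with DAPT in P0 GFP+ cells. Among 4 Notch receptors, Notch1 (-1.42) and Notch3 were called lower at P0 with DAPT. Among 5 ligands, Jag1 (-1.76), the ligand made by supporting cells, was called lower, and Jag2, Dll1 and Dll3, ligands of nascent hair cells, were called higher. Among 11 modulators, Lfng (-1.90), a glycosyltransferase that modifies Notch, and Dtx4 were called lower and Mfng higher. At P5 none of these 20 genes was called by edgeR, which called no gene at all, and DESeq2 called Notch3 and Lfng lower. The 13 hair cell markers included 7 called higher in P0 GFP+ cells with DAPT and none called lower, beside the same 8.37%, and their summed level was 2397 to 2675 CPM in DAPT against 315 to 458 CPM in DMSO. At P5 it was 617 to 662 CPM against 481 to 487 CPM, and 1 marker, Atoh1, was called higher by DESeq2 and none by edgeR. The part of hair cell RNA in the level of Ttyh1 was not tested.

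**Figure D4:**
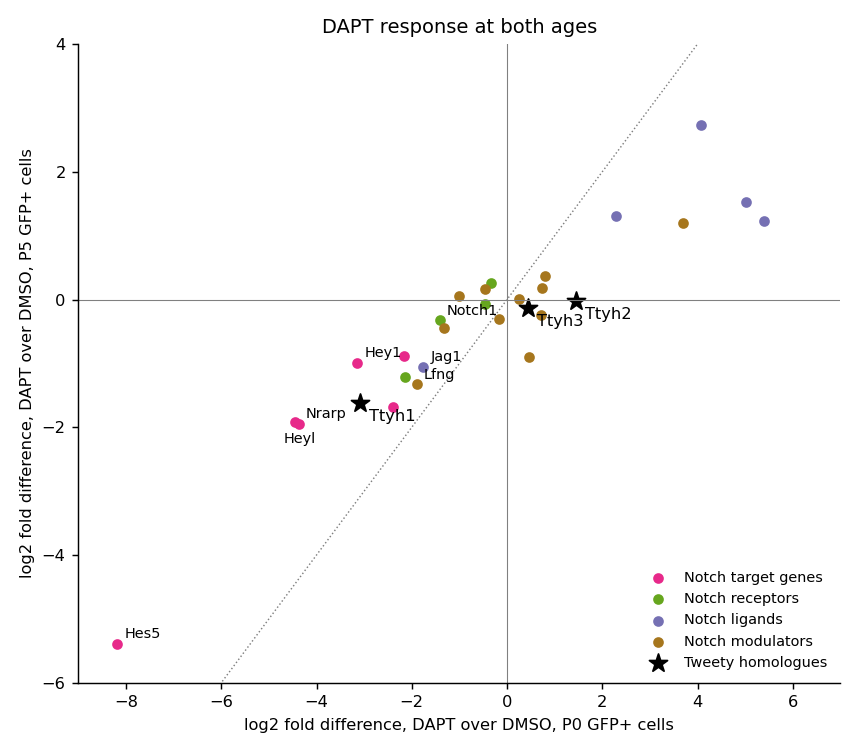
Log2 fold difference with DAPT in P0 GFP+ cells (x) against that in P5 GFP+ cells (y) for genes of the Notch lists and for the Tweety homologues (stars), with a dotted line where both are equal. Ttyh1 (-3.08 and -1.62) lies among the Notch target genes, and Ttyh2 (1.44 and -0.03) and Ttyh3 (0.44 and -0.13) lie to the right of 0 and near 0 at P5.

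The genes of the complex that DAPT blocks were read next. Of 8 genes of gamma-secretase and Rer1, 1 was called lower with DAPT in P0 GFP+ cells, Psen2, a catalytic subunit (log2 -1.46, adjusted p = 0.00272), against a background of 8.37%. Rer1 RNA was at 50.6 and 50.04 CPM in DMSO and 47.3 and 52.5 CPM in DAPT in P0 GFP+ cells, so its libraries overlapped where Ttyh1 fell. Rer1 protein was not measured.

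Other anion channels and their subunits were counted as a list. Of 28 tested with DAPT in P0 GFP+ cells, 1 was called, beside 8.37% of all genes. It was Tmem206, a proton-activated chloride channel, which was higher (log2 1.86, adjusted p = 4.64e-05), at 19.2 and 20.1 CPM in DMSO and 74.7 and 71.2 CPM in DAPT. The 28 had a median log2 fold change of 0.01. Between the fractions at P0 in DMSO 6 were called higher and 6 lower in GFP+ cells out of 28 tested, close to the 40.9% of all genes.

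Genes that Ttyh1 accompanies in brain glia were examined next. The list is not particular to glia. It shares Sox2, Sox9 and Slc1a3 with the supporting cell markers, and the study counts Aqp4 and Ptprz1 among genes enriched in GFP+ cells. Of 17 radial glia and astrocyte genes tested, 6 were called lower and none higher with DAPT in P0 GFP+ cells: Fabp7, Ptprz1, Sox9, Aqp4, Gja1 and Ednrb, which is 6 of 17 against a background of 8.37% over both directions. Fabp7, a fatty acid binding protein of radial glia, was at 190 and 84.8 CPM in DMSO and 4.91 and 11.01 CPM in DAPT (log2 -4.14). Aqp4, a water channel, was at 19.5 and 26.5 CPM against 2.08 and 0.88 CPM (log2 -3.99). Gja1, a gap junction protein, was at 3.97 CPM or less in all 4 libraries (log2 -2.96). Ednrb, an endothelin receptor, was at 152 and 99.5 CPM against 14.9 and 28.1 CPM (log2 -2.59). At P5 none of 18 was called by edgeR, which called no gene there, and DESeq2 called 2 lower, Fabp7 (-2.09, adjusted p = 1.36e-12) and Ednrb (-1.44, adjusted p = 2.56e-06).

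Markers of other cell types were set beside the levels of the members. The 10 Schwann cell and glia markers summed to 908 and 614 CPM in P0 DMSO GFP- replicates 1 and 2, and to 1564 and 1556 CPM in P0 DAPT GFP-. Ttyh1 was at 81.1, 23.5, 86.9 and 81.5 CPM in the same libraries, so replicate 2 of P0 DMSO was lowest in both. That replicate was also the lowest of them for neuron markers, at 39.4 CPM. In P5 GFP- libraries the glial sum was 966 and 935 CPM in DMSO and 1029 and 588 CPM in DAPT. Ttyh1 was at 36.2 and 33.7 CPM and at 31.3 and 26.6 CPM in the same order. Within each GFP- pair of both ages, the library with the higher glial sum also held more Ttyh1. Across the P5 GFP- pairs, the highest glial sum did not go with the highest Ttyh1. In GFP+ libraries the glial sum was 169 to 490 CPM, with the lowest value in P0 DAPT. Mesenchyme markers summed to 8534 to 14337 CPM in GFP- and to 120 to 1740 CPM in GFP+ libraries, in the same direction as Ttyh2 and Ttyh3. By replicate, the GFP+ sums were 246 and 215 CPM in P0 DMSO and 120 and 225 CPM in P0 DAPT. At P5 they were 1715 and 416 CPM in DMSO and 666 and 1740 CPM in DAPT. Within each of these pairs the library with the higher sum also held more Ttyh2. Between the P0 pairs, both DAPT libraries held more Ttyh2, with sums no higher than 225 CPM. The 10 neuron markers summed to 20.6 to 156 CPM in GFP+ libraries. Only 7 of them were tested with DAPT in P0 GFP+ cells, and 4 were called higher, beside 8.37% of all genes called in either direction. Markers of immune cells, endothelial cells, melanocytes and erythroid cells each summed to 36.7 CPM or less in every GFP+ library. The part of these cells in the levels was not tested.

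Each member was read beside the protein-coding genes within 200 kb, against the 8.37% of all genes called with DAPT in P0 GFP+ cells. Ttyh3 lies 5.04 kb from Lfng, the gene whose regulatory DNA drives the GFP transgene, and whether the transgene includes Ttyh3 is not given in the sources used here. Lfng held 669 and 651 CPM in P0 DMSO GFP+ libraries and 185 and 178 CPM in P0 DAPT GFP+ cells (log2 -1.90), and at 10.5 and 22.4 CPM in P0 DMSO GFP- cells. Ttyh3 and Lfng thus differed in direction in both comparisons. Of the 8 neighbours of Ttyh3, 1 was called with DAPT in P0 GFP+ cells, Lfng.

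Of 6 tested neighbours of Ttyh2, 3 rose with DAPT in P0 GFP+ cells, beside 8.37% of all genes called. Dnaic2, an axonemal dynein intermediate chain 6.43 kb away, was at 2.38 and 2.19 CPM in DMSO and 20.0 and 24.5 CPM in DAPT (log2 3.24). Kif19a, a kinesin of motile cilia 44.4 kb away, was at 33.2 and 24.1 CPM against 273 and 236 CPM (log2 3.11). Btbd17, 70.2 kb away, was at 5.59 and 4.02 CPM against 75.6 and 68.7 CPM (log2 3.87). The remaining 3 tested neighbours, Rpl38, Gprc5c and Cd300a, were not called.

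Next to Ttyh1, 1 of 5 neighbours was called with DAPT in P0 GFP+ cells. Lair1, an inhibitory immune receptor 56.2 kb away, was at 12.9 and 15.8 CPM in DMSO and 3.68 and 3.98 CPM in DAPT (log2 -1.94, adjusted p = 0.00178), and it was higher in GFP+ than in GFP- cells at P0 in DMSO. Leng8, 0.33 kb downstream of Ttyh1 on the same strand, was at 122 and 194 CPM in DMSO and 286 and 233 CPM in DAPT (log2 0.68, adjusted p = 0.0361, not called).

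**Figure D5:**
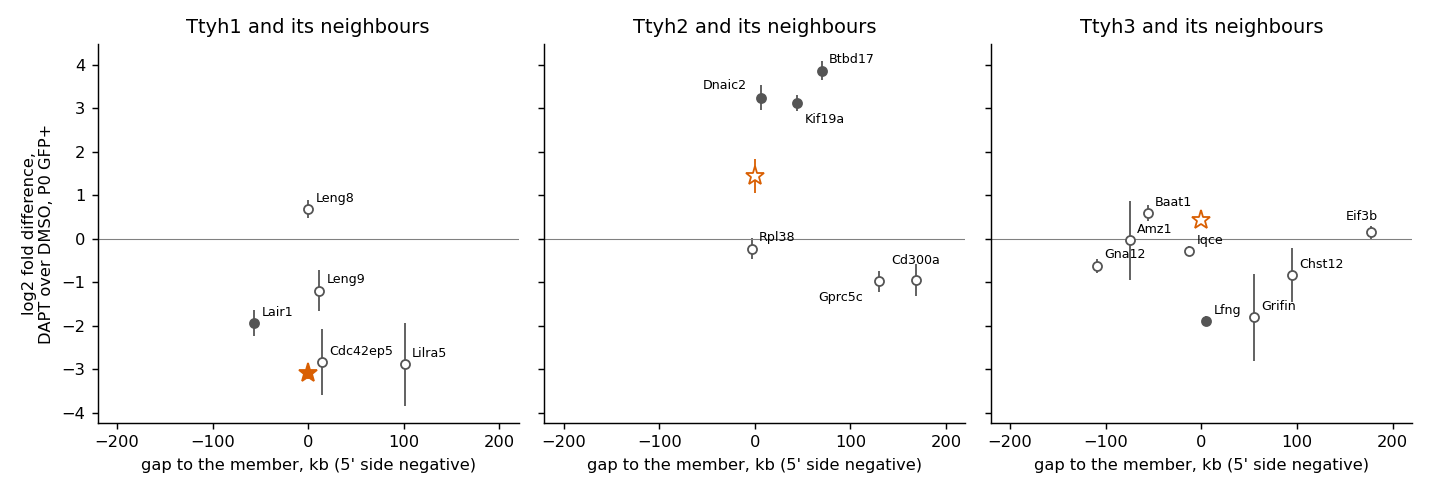
Log2 fold difference with DAPT in P0 GFP+ cells (bars, SE) of each member (star, at 0) and of the protein-coding genes within 200 kb, plotted by the gap in kb on the member's own strand, filled where called. Dnaic2 (3.24), Kif19a (3.11) and Btbd17 (3.87) lie 3′ of Ttyh2, and Lfng (-1.90) lies 5.04 kb 3′ of Ttyh3.

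The protein-coding genes with the profile most like each member were ranked by Pearson's r of log2(CPM + 1) over the 16 libraries, among 11752 genes of at least 10 CPM in their highest group mean. The libraries share fractions and depths, so r describes the profile and carries no test. For Ttyh1 the first 5 were Gstm7 (r = 0.97), Fam70a (0.96), Cdc123 (0.95), Egfl6 (0.95) and Tmod2 (0.94), and r was 0.88 for Hes5, 0.87 for Notch1 and 0.64 for Heyl. Egfl6, a secreted matrix protein, was at 257 and 320 CPM in P0 DMSO GFP+ and 15.2 and 13.8 CPM in P0 DAPT GFP+ cells. For Ttyh2 the first 5 were Hint1, Creb3l2, Rgs3, 4931408A02Rik and Fkbp7, with r from 0.98 to 0.99. For Ttyh3 they were Ivd, Fam32a, Aldh4a1, Dohh and Nr2f6, each at 0.99.

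Within the family, r was 0.92 between Ttyh2 and Ttyh3, -0.82 between Ttyh1 and Ttyh2, and -0.76 between Ttyh1 and Ttyh3. By Spearman's rho 2, 1 and 0 of the 5 genes stayed among the first 5 for Ttyh1, Ttyh2 and Ttyh3, and over the 8 group means 2, 0 and 3 did.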

How the data were processed

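RNA of sorted cochlear cells was sequenced as paired ends from 16 libraries. The authors aligned the reads to mm9 with TopHat (1.4.0 in the submitters' processing notes) and deposited raw counts per Ensembl gene, which HTSeq made per those notes, with 1 library per file and no pooling. The counting options are not given in the sources used here. The kit does not mark strand, and small samples of cells were amplified before library preparation, which can alter the share of reads outside genes and the spread between replicates.

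The closing lines for reads outside genes entered no test. They held 50.05% to 62.0% of reads for no gene in GFP+ libraries. Each comparison used the counts of its own groups in edgeR 4.0.16 (R 4.3.3), with filterByExpr (minimum count 10, minimum total 15), TMM, the quasi-likelihood F test and Benjamini-Hochberg adjustment over all genes tested. SE was the log2 fold change over the square root of F. CPM used TMM over all libraries. The scripts were tested on simulated data. Alternatives were DESeq2 1.42.0, its size factors, no filter, all 8 groups in the fit, a replicate block, mitochondrially encoded genes left out, and each library left out in turn. DESeq2 counts over the gene lists at P5 and the transcript lengths were added after seeing the data. Groups came from the sample titles. Positions came from the GENCODE annotation of mm9 and promoters from RefSeq on GRCm38.p6.

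The members, the gene lists and the tests were chosen with earlier results of these data known. Named beside the members were genes of the Notch lists, up to 4 called genes of each other list, protein-coding genes within 200 kb, and the 5 genes of the most similar profile.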

Additional observations from a re-analysis of the deposited data

Results flagged for a closer look

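The fall of Ttyh1 with DAPT in GFP+ cells differed between the ages by the interaction term of the fit: the response at P5 minus that at P0 was 1.46 log2 units (95% interval 0.95 to 1.96, adjusted p = 0.00842, edgeR), with DAPT below DMSO in every library of both ages. The call was lost on leaving out any 1 of 6 of the 8 libraries (1.28 to 1.61, adjusted p = 0.0139 to 0.0424) and with all 8 groups in the fit (1.43, adjusted p = 0.157). The P0 DMSO GFP+ pair lies in a run of library numbers of its own, so its group cannot be told apart from that run here. The 4 libraries of P0 DMSO GFP+ and P5 DMSO GFP+ began from different levels, 688 and 735 against 310 and 373 CPM, while the 4 DAPT libraries lay between 77.1 and 121 CPM.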

How the results depend on the processing

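No member changed direction among its called values under any setting. Of 237 member values under other settings, 226 kept their side of the threshold, 2 lost the call and 9 gained it, and of 192 values with 1 library left out, 171 kept it, 16 lost it and 5 gained it. Of 72 group levels under other scalings 39 moved by more than the spread of their pair, at 0.871 to 1.24 times the level given. The cause of the changes below was not tested. With no filter on low counts, Ttyh2 was called for DAPT in P0 GFP+ cells (1.49), Ttyh1 for DAPT in P5 GFP+ cells (-1.62), Ttyh2 for age in GFP+ cells (1.64) and Ttyh1 for the fraction difference in DAPT response at P0 (-3.71). Genes called were then 108 for DAPT in P5 GFP+ cells, 1961 for age in GFP+ cells, 906 for the age difference in response, and 473 and 3 for the fraction difference at P0 and P5. By DESeq2, Ttyh2 (1.47) was called for DAPT in P0 and Ttyh1 (-1.62) for DAPT in P5 GFP+ cells, and Ttyh1 (-3.76) and Ttyh2 (1.48) for the fraction difference at P0. DESeq2 called 58 genes for DAPT in P5 GFP+, 27 in P0 GFP- and 8 in P5 GFP- cells, 1659 for age in GFP+ and 1 in GFP- cells, 865 for the age difference, and 1044 and 2 for the fraction difference at P0 and P5. With all 8 groups in the fit, 1089 genes were called for DAPT in P0 GFP+ cells, Ttyh1 lost its calls for age in GFP+ cells (-1.06) and for the age difference (1.43) and gained that for the fraction difference at P0 (-3.73), where 293 genes were called.

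With the replicate block, 1050 genes were called for age in GFP+ cells, and no other count moved by over 1.5 times and no member call changed. Deviations of same-numbered DMSO and DAPT libraries correlated at -0.042 (P0 GFP+), -0.251 (P5 GFP+), 0.427 (P0 GFP-) and 0.726 (P5 GFP-), and 2 pairs do not establish a pairing. A crossed pairing of the P5 GFP+ libraries, chosen after seeing the data, called 0 genes.

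With 1 library left out, Ttyh1 ranged from 0.039 to 1.79 for DAPT in P0 GFP- cells, 3.20 to 4.97 for the fractions at P0 in DMSO, 1.91 to 2.17 at P5 in DAPT, -1.23 to -0.93 for age in GFP+ cells, -1.25 to 0.53 in GFP- cells, 1.28 to 1.61 for the age difference and -4.89 to -3.09 for the fraction difference at P0. Ttyh2 ranged from -4.73 to -4.23 for the fractions at P0 and -3.74 to -2.50 at P5 in DMSO, and 0.87 to 2.06 for age in GFP+ cells. Ttyh3 ranged from -1.78 to -1.66 for the fractions at P0 in DMSO. Genes called ranged from 0 to 2 for DAPT in P5 GFP+, 0 to 549 in P0 GFP- and 0 to 11 in P5 GFP- cells, 0 to 9170 for the fractions at P0 and 2136 to 7921 at P5 in DMSO, 1209 to 6283 at P5 in DAPT, 471 to 1513 for age in GFP+ and 0 to 492 in GFP- cells, 59 to 268 for the age difference and 3 to 952 for the fraction difference at P0. With 2 libraries a group, a lone library was assumed to vary like the others.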
